A study of Mus musculus with 25 samples.

Results

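The proteasome subunit genes are the genes with the platform symbols Psma1 to Psma7, Psmb1 to Psmb10, Psmc1 to Psmc6, Psmd1 to Psmd14 and Psme1 to Psme4. They were taken by name, 41 in all, and the probe set with the highest mean over the 25 arrays stood for each, among those annotated with a single symbol. Of the 41 genes 40 could be followed, among 18193 genes measured in the same way. The exception was Psme2, whose probe set also carries the symbol Psme2b and was not used here. The RNA came from RAW 264.7 cells, an established mouse macrophage line. All groups were cultures of this line in medium with serum, and they differed in the hypochlorous acid (HOCl) added to it for 6 h: 0 mM (4 arrays), the lower doses 0.14, 0.35 and 0.7 mM, and the higher doses 1.4, 2.1, 2.8 and 3.5 mM (3 arrays each). HOCl is the oxidant that neutrophils make with myeloperoxidase, and the dose is the amount added to medium, not what reached the cells. The labels call the replicates biological and do not say more about how the cultures were separated, so p-values measure the spread between these arrays.

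The proteasome degrades proteins that carry ubiquitin chains, including proteins damaged by oxidation. Its core is a barrel of alpha rings, which gate the entrance, and beta rings, which hold the proteolytic sites. A regulatory particle caps the barrel: the base contains the ATPases that unfold and thread the substrate, and the lid removes the ubiquitin. In macrophages and other immune cells, interferon induces the beta subunits Psmb8, Psmb9 and Psmb10, which replace the catalytic subunits Psmb5, Psmb6 and Psmb7 and form the immunoproteasome, a source of peptides for MHC class I. Other caps, the activators encoded by Psme1 to Psme4, open the gate without ATP. When proteasome capacity is short, the transcription factor Nfe2l1 is known to raise the subunit genes together through antioxidant response elements.

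Promoters are shown here because most of these genes moved together. RefSeq windows (build GRCm38.p6, 250 bases before to 50 after each gene's start) were found for 35 of the 41 genes, 38 windows in all. The core letters of the antioxidant response element, TGACNNNGC, stood on either strand in 6 of the 38 windows (15.8%), against 12.4% of all 32851 windows of that length. The genes were Psmb5, Psmb6, Psmc6, Psmd9, Psmd12 and Psme4. The looser TGANNNNGC, which includes every match of the first, stood in 22 windows (57.9%, against 41.3% of all). CCAAT, the letters bound by NF-Y, stood in 13 (34.2%, against 37.4%), and the letters TTCNNNGAA in 2 (5.26%, against 8.30%). The interferon-stimulated response element letters stood in 4 (10.5%, against 3.44%: Psmb3, Psmd4, Psmd9 and Psme1). A match is a description of letters only. The stretches of 61 bases around the core letters are given for the 4 genes of the 6 that were later called higher at 2.1 mM. Each reads 5′ to 3′ on the gene's strand and lies upstream of its start. Capitals mark the TGACNNNGC match, which for Psmc6 and Psmd12 reads on the opposite strand. Psmc6 (base ATPase, chr14:45329574-45329634, plus strand), Psmd12 (lid, chr11:107479278-107479338, plus strand), Psmb5 (catalytic, chr14:54618008-54618068, minus strand) and Psmb6 (catalytic, chr11:70525296-70525356, plus strand) read:
Psmc6: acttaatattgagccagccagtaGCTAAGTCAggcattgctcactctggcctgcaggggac
Psmd12: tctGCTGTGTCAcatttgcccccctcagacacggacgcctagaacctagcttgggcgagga
Psmb5: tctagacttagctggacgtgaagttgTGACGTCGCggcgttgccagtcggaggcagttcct
Psmb6: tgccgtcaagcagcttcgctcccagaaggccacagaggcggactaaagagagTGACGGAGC
The match ends close to the start in Psmb6, where it begins 9 bases before it, and in Psmb5 (47 bases). It lies far upstream in Psmc6 (227 bases) and Psmd12 (247 bases).

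Levels are log2 signals on a scale on which the median of every array is 0, so 1 unit is a 2-fold difference. Levels of different probe sets are not set against each other. The mean levels of the 40 genes lay between 2.71 and 6.95, all above the array median. Of 12 macrophage markers 9 had means of 4.82 (Spi1) to 8.43 (Lyz1), while Adgre1 and Itgam were at 2.57 and 2.86 and Aif1 at -0.06. The T cell, B cell, epithelial and fibroblast markers looked at were at 1.49 or below. Of the neutrophil markers Elane was at -0.16, and S100a8 had a mean of 1.45 over all arrays and -0.11 at 0 mM, and its part in the results was not tested. Across all probe sets, any 2 arrays of 1 dose correlated with r between 0.953 and 0.997. A technical measure moved with dose. The mean of 8 probe sets for the 5′ ends of spiked-in poly-A control RNAs was low (at most 1.12) on all arrays of 0 and 0.14 mM and on replicates 1 and 2 of 0.35 and 0.7 mM. It was high (at least 1.75) on replicate 3 of 0.35 and 0.7 mM and on every array from 1.4 mM up. From 1.4 mM the spike level and the dose cannot be told apart within a dose, and values with the spike level as a term are given beside the results, for each class or for single genes. RNA was taken from whole cultures, so a change in which cells survived and a change of RNA per cell cannot be told apart either.

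Most proteasome genes were higher at 2.1 and 2.8 mM, and fewer at 0.35, 1.4 and 3.5 mM. A gene was called where the adjusted p of limma (Benjamini-Hochberg over all probe sets) was under 0.05, and the share of all 18193 genes called in the same direction is given as the background. At 2.1 mM 29 of 40 (72.5%) were called higher against a background of 7.32%, and 2 were called lower against 8.20%. At 2.8 mM these were 26 higher (background 5.68%) and 2 lower (8.60%), at 1.4 mM 16 higher (3.85%) and 0 lower (5.06%), and at 3.5 mM 16 higher (4.54%) and 1 lower (4.83%). Of the smaller doses, 0.35 mM gave 9 higher (2.12%) and 0 lower (5.56%), and 0.7 mM gave 1 higher (0.148%) and 0 lower (0.0165%). These counts at the smaller doses grew where arrays were weighted by their spread, and with gene-by-gene weights the shares of all genes grew too. Default weights stopped before converging, and the shares of all genes were not counted with them. With default weights 5, 32, 23 and 29 genes were higher at 0.14, 0.35, 0.7 and 1.4 mM, and 4, 3, 5 and 2 lower. With gene-by-gene weights, added after seeing the data, the counts were 5, 30, 20 and 29 higher (10.5%, 13.7%, 9.60% and 11.0% of all genes) and 4, 1, 2 and 2 lower (9.47%, 13.8%, 10.8% and 12.8%). At 0.14 mM the 5 higher and 4 lower of 40 were near those shares. At 0.14 mM, without weights, limma called 0 higher (0.0110%) and 0 lower (0%), with 3 genes at an unadjusted p under 0.05. By that unadjusted p 0, 1 and 2 genes were lower at 0.35, 0.7 and 1.4 mM. The shares of all genes at an unadjusted p were not counted. The median log2 change of the 40 genes was 0.03, 0.32, 0.28, 0.41, 0.63, 0.50 and 0.39 from 0.14 to 3.5 mM, beside 0.01, 0.03, 0.02, -0.01, 0.00, 0.01 and 0.10 over all genes. All these comparisons share the 0 mM arrays. Of the 40 genes 23 had their highest mean at 2.1 mM. The moderated F test over the 7 doses called 32 of 40 (background 28.0%). The other 8 were Psmb1, Psmb5, Psmb8, Psmb10, Psmc4, Psmd3, Psmd8 and Psmd13.

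**Figure D1:**
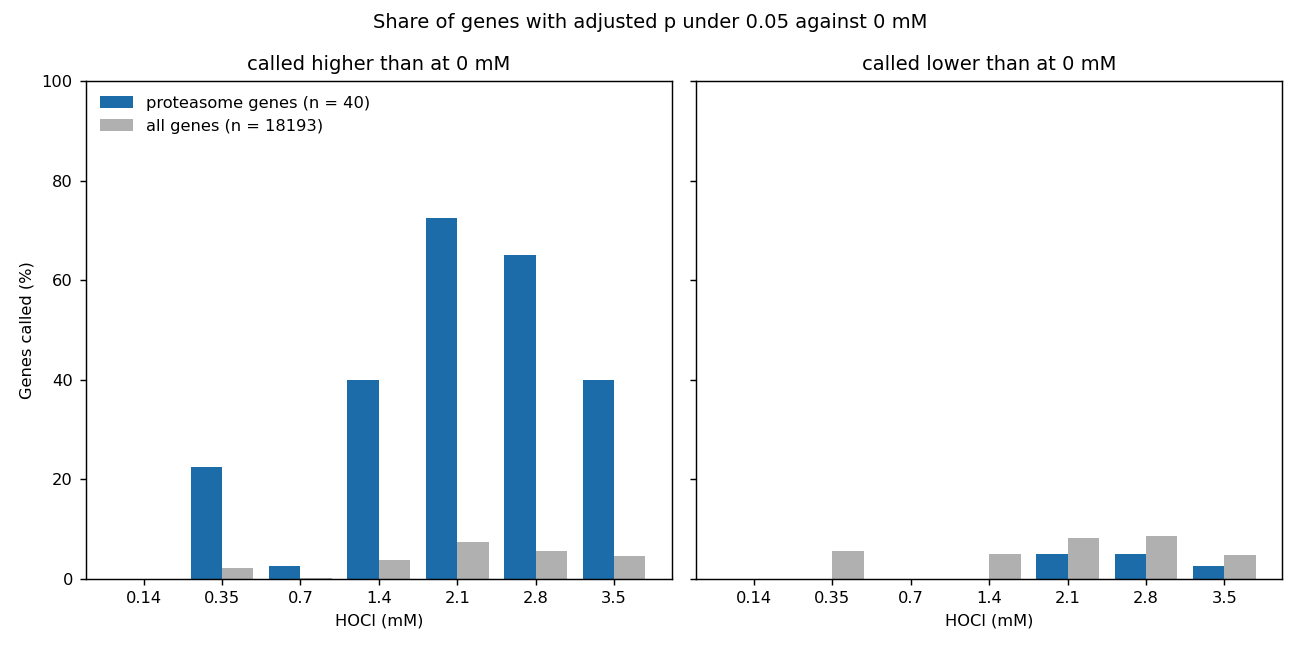
Share of genes (%, vertical axis) called higher (left) or lower (right) than at 0 mM at each HOCl dose (mM), for the 40 proteasome genes (blue) and all 18193 genes (grey). The blue bars on the left stand highest at 2.1 mM (72.5%) and at 2.8 mM (65%), while on the right they stay at or below 5%.

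How far single arrays carried these counts differed between doses. At 2.1 mM 21 to 31 genes were called higher whichever array was left out, and 22 of the 31 calls there held in every omission. At 0.35 mM the 9 became 1 without replicate 4 of 0 mM or without replicate 1 or 2 of 0.35 mM, 2 without replicate 2 of 0 mM, 3 without replicate 3 of 0.35 mM, and 16 without replicate 3 of 0 mM. Only the lid gene Psmd11 was called in every omission there. At 0.7 mM the 1 became 0 without replicate 4 of 0 mM or replicate 2 of 0.7 mM, 7 without replicate 3 of 0 mM, and 2 without replicate 2 of 0.35 mM or replicate 1 of 2.8 or 3.5 mM. At 1.4 mM the 16 became 9 without replicate 3 of that dose. At 3.5 mM they became 5 without replicate 1 of that dose, and 10 without replicate 3 of it or without replicate 4 of 0 mM. The 0 mM arrays themselves differed. Replicates 1 and 3 both lay above replicates 2 and 4 for 22 of the 40 genes and both below for 7. Over all genes this was so for 30.4% and 22.1%. Of the genes called higher at 2.1 mM, the core genes with the first pair on top were Psma1, Psma4, Psma6, Psmb2, Psmb3, Psmb5 and Psmb7. The others with that pair on top were Psmc1, Psmc2, Psmc3, Psmc5, Psmd2, Psmd6, Psmd7, Psmd12, Psmd5 and Psme3. Those with the second pair on top were Psmc6, Psmd4 and Psmd14. What set these pairs apart was not tested. Relative to the 0 mM mean the median of the genes was 0.03, -0.12, 0.17 and -0.06 on replicates 1 to 4 of 0 mM, and 0.30, 0.01 and 0.52 on replicates 1 to 3 of 0.7 mM. It was 0.59, 0.32 and 0.31 on those of 3.5 mM, and 0.69, 0.63 and 0.56 on those of 2.1 mM.

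The calls above 0.7 mM depended on how the spike level was treated. With it as a term, 3 genes were called higher at 0.35 mM (Psmd1, Psmd11 and Psmd5) and 1 at 0.7 mM (Psmd5). There were 0 at 1.4 mM, 1 at 2.1 mM (Psmd5, log2 1.81, adjusted p = 0.0308 in limma), and 0 at 2.8 and 3.5 mM. Over all genes 2.4%, 0.12%, 0.038%, 0.088%, 0.066% and 1.5% were called higher in that fit from 0.35 to 3.5 mM. At 2.1 mM the share of all genes was 7.32% without the term. With the term the F test called 8 of the 40, and its share of all genes was not counted in that fit. The medians of the 40 genes in that fit stayed above 0, at 0.26, 0.20, 0.15, 0.42, 0.32 and 0.18 from 0.35 to 3.5 mM. What separates the term from the dose is replicate 3 of 0.35 mM and of 0.7 mM. Among arrays of the low spike level, 2 genes were called higher at 0.35 mM (Psmd11 at 0.48 and Psmd5 at 0.78) and 0 at 0.7 mM. Comparisons between 2.1, 2.8 and 3.5 mM, all of the high level, do not meet this limit.

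**Figure D2:**
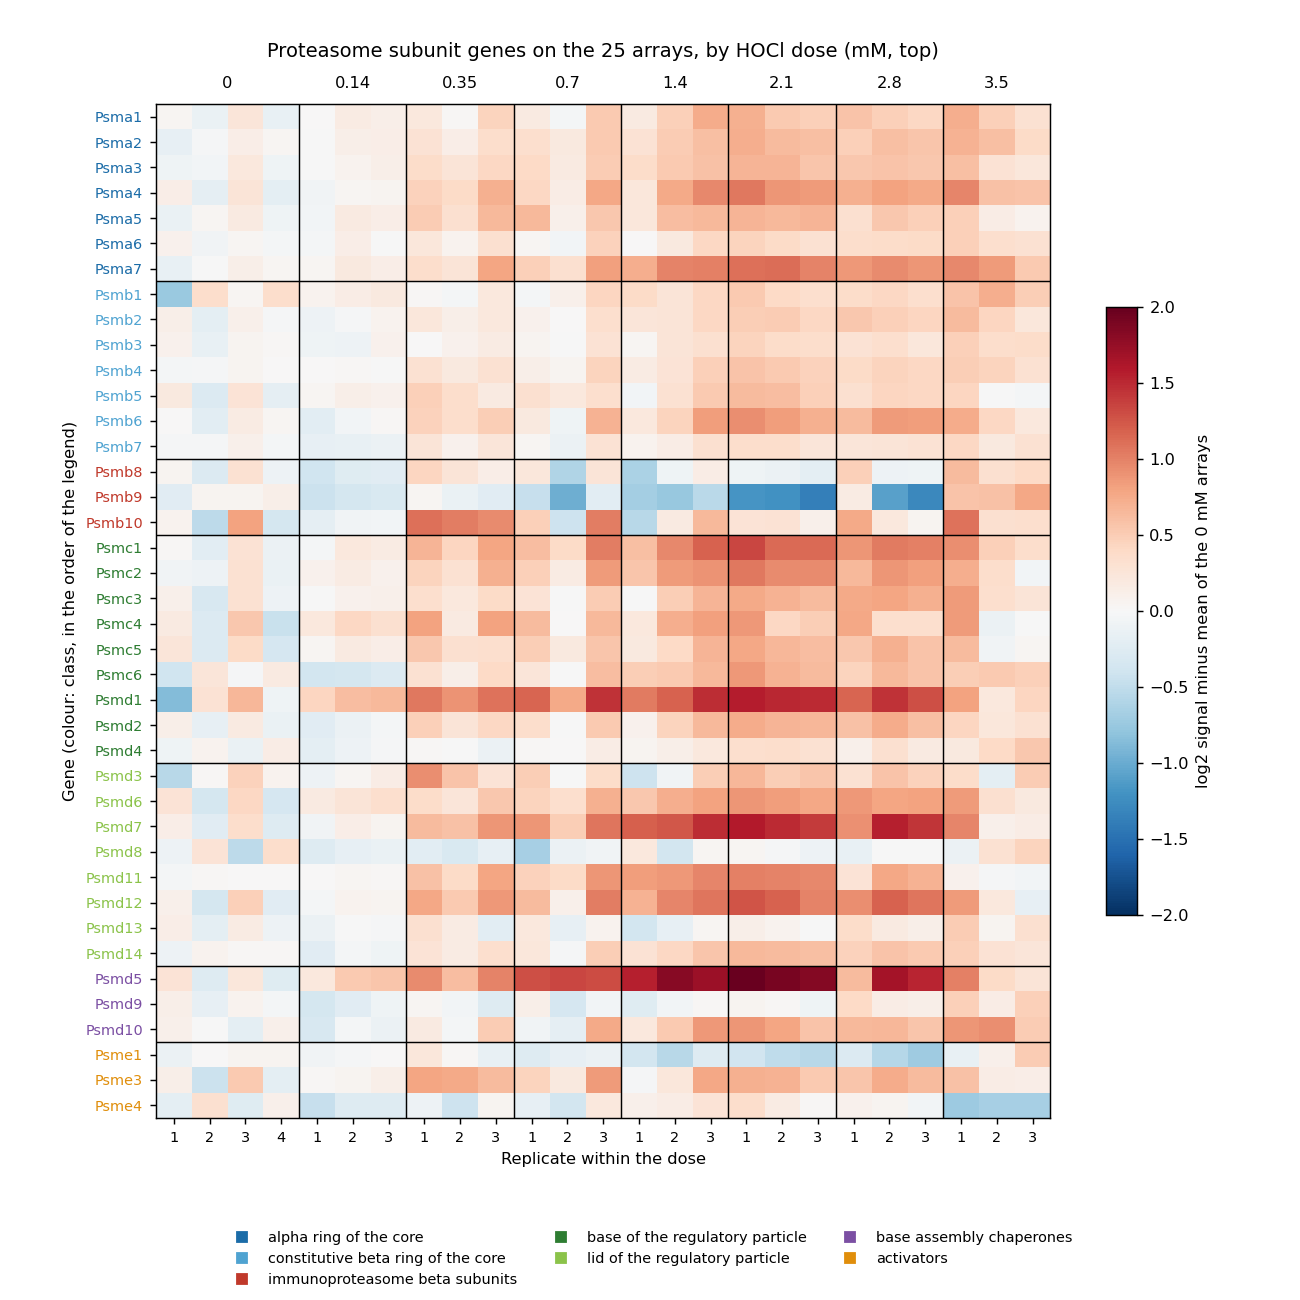
Log2 signal of each of the 40 genes (rows, grouped and coloured by class) on the 25 arrays (columns, grouped by HOCl dose in mM), minus the gene's mean over the 4 arrays of 0 mM. Red fills most rows at 2.1 mM, led by Psmd5, Psmd1 and Psmd7, while Psmb9 and Psme1 are blue there. At 2.8 mM replicate 1 differs from the other 2 for several genes, among them Psmb8, Psmb9, Psmb10, Psmd5, Psmd7 and Psmd11.

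All 7 genes of the alpha ring were higher at 2.1 and 2.8 mM, and 6 of them still at 3.5 mM. Their median log2 change was 0.66 at 2.1 mM, 0.54 at 2.8 mM and 0.50 at 3.5 mM. Psma7 changed most. Its levels were 5.07, 5.20, 5.34 and 5.25 on the 0 mM arrays and 5.25, 5.41 and 5.34 at 0.14 mM. They were 5.57, 5.47 and 6.01 at 0.35 mM, 5.70, 5.54 and 6.03 at 0.7 mM, and 5.94, 6.21 and 6.22 at 1.4 mM. At 2.1 mM they were 6.32, 6.33 and 6.20, at 2.8 mM 6.08, 6.16 and 6.10, and at 3.5 mM 6.18, 6.06 and 5.74. From 0.35 mM up every array lay above all 0 mM arrays, and replicate 3 was the highest of its dose at 0.35 and 0.7 mM, where it alone has the high spike level. At 2.1 mM the gene was 2.1-fold higher (log2 1.07, SE 0.131, limma adjusted p = 9.08e-05). With the spike level as a term the change was 0.62 and was not called (adjusted p = 0.137).

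Psma2 and Psma3 changed less and with little spread. Psma2 was at 6.10, 6.23, 6.40 and 6.29 at 0 mM and at 6.98, 6.89 and 6.86 at 2.1 mM, a log2 change of 0.66 (SE 0.0998). Psma3 was at 6.11, 6.15, 6.41 and 6.12 at 0 mM and at 6.87, 6.88 and 6.76 at 2.1 mM, a change of 0.64 (SE 0.0989). In both genes the 2 groups did not overlap, and their calls at 2.1 mM held without each array in turn. Psma4 (0.93), Psma5 (0.67), Psma1 (0.57) and Psma6 (0.38) were called higher at 2.1 mM too. The call of Psma1 was lost without replicate 1 of 2.1 mM (adjusted p = 0.0768), and that of Psma6 without replicate 2 or 4 of 0 mM or any array of 2.1 mM (up to 0.099). Psma5 alone of the ring was not called at 3.5 mM, with a change of 0.23. None of the 7 was called at 2.1 mM with the spike level as a term, with changes of 0.057 to 0.62 and adjusted p from 0.137 to 0.897, and none at 2.8 or 3.5 mM. For Psma3 the probe set of largest variance, with a mean level of only 1.01, also turned the direction at 2.1 mM (-0.11, adjusted p = 0.833).

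Most genes of the constitutive beta ring were higher too. At 2.1 mM 6 of its 7 genes were, at 2.8 mM 4 and at 3.5 mM 5, with medians of 0.47, 0.39 and 0.42, whose difference from the alpha ring was not tested. None of the 6 was called at 2.1 mM with the spike level as a term, with changes of 0.11 to 0.65 and adjusted p from 0.261 to 0.736, and none at 3.5 mM. Psmb4, a structural subunit, was at 6.66, 6.67, 6.74 and 6.69 at 0 mM, and at 7.27, 7.22 and 7.15 at 2.1 mM, and its lowest array of 3.5 mM still lay above all 0 mM arrays. The groups did not overlap, and the change was 0.52 at 2.1 mM (SE 0.0872, adjusted p = 0.000895) and 0.42 at 3.5 mM (adjusted p = 0.00438), both by limma. Psmb2 was at 5.18, 4.86, 5.16 and 5.04 at 0 mM and at 5.55, 5.57 and 5.47 at 2.1 mM (change 0.47, SE 0.101). Psmb3, also structural, had changes of 0.39 at 2.1 mM and 0.40 at 3.5 mM. Psmb1 was called at 3.5 mM only (0.59, adjusted p = 0.041), and its replicate 1 of 0 mM, at 5.08, lay far below the other 0 mM arrays at 6.17, 5.85 and 6.16. That call was lost in 9 omissions, with an adjusted p of up to 0.127 without replicate 2 of 3.5 mM.

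The 3 constitutive catalytic genes did not move alike in size. Psmb6, which carries the caspase-like site, was at 5.29, 5.07, 5.43 and 5.31 at 0 mM, 6.21, 6.11 and 5.99 at 2.1 mM, and 6.02, 5.69 and 5.48 at 3.5 mM. Its change at 2.1 mM was 1.78-fold (log2 0.83, SE 0.163, limma adjusted p = 0.00254). Psmb5, which carries the chymotrypsin-like site, was at 5.68, 5.21, 5.75 and 5.30 at 0 mM and at 6.12, 6.10 and 5.96 at 2.1 mM. Its 0 mM arrays fell into the pairs described above, and the change of 0.57 (SE 0.142) was not called without replicate 1 of 2.1 mM (adjusted p = 0.0513). Psmb7, which carries the trypsin-like site, was at 6.44, 6.44, 6.57 and 6.42 at 0 mM and at 6.81, 6.81 and 6.71 at 2.1 mM. Its change of 0.31 (SE 0.0877) was lost without replicate 4 of 0 mM or replicate 1 or 2 of 2.1 mM (adjusted p up to 0.0868).

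The immunoproteasome genes were not among the core genes called higher. None of the 3 was called higher than at 0 mM by limma at any dose (1 at an unadjusted p under 0.05 at 0.35 mM and 2 at 3.5 mM), and Psmb9 was lower at 2.1 and 2.8 mM. Psmb9, the counterpart of Psmb6, was at 3.69, 3.98, 3.98 and 4.03 at 0 mM and at 3.50, 3.57 and 3.62 at 0.14 mM. It was at 3.96, 3.78 and 3.70 at 0.35 mM, at 3.46, 2.95 and 3.71 at 0.7 mM, and at 3.24, 3.17 and 3.38 at 1.4 mM. At 2.1 mM, where its mean was lowest, it was at 2.74, 2.72 and 2.56. At 2.8 mM replicates 2 and 3 were at 2.84 and 2.63 but replicate 1 was at 4.08, above all 0 mM arrays, and at 3.5 mM the levels were 4.50, 4.50 and 4.69. The 2.1 mM arrays lay below and the 3.5 mM arrays above every 0 mM array. The gene was at 0.42 of its 0 mM level at 2.1 mM (log2 -1.25, SE 0.229, limma adjusted p = 0.00163), a call that held in every omission. With the spike level as a term the change was -1.42 and was not called (adjusted p = 0.146). At 2.8 mM the change was -0.74 (SE 0.229, adjusted p = 0.0403). It was lost in 8 omissions: replicates 2, 3 and 4 of 0 mM, 2 and 3 of 0.14 mM, 2 of 2.1 mM, and 2 and 3 of 2.8 mM (adjusted p up to 0.261). At 3.5 mM the change was 0.64 and was not called (adjusted p = 0.0831).

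Psmb8 and Psmb10 spread widely within some doses, such as 0.7 and 1.4 mM, but not at 2.1 mM, and were not called. Psmb8, the counterpart of Psmb5, was at 5.04, 4.72, 5.29 and 4.89 at 0 mM, at 4.90, 4.86 and 4.78 at 2.1 mM, and at 5.61, 5.31 and 5.38 at 3.5 mM. Its arrays of 2.1 mM lay within the 0 mM range, and those of 3.5 mM above its top. Psmb10, the counterpart of Psmb7, ranged from 3.31 to 4.64 at 0 mM and was at 4.94, 4.86 and 4.78 at 0.35 mM, above every 0 mM array. Its change of 1.03 there had an SE of 0.325 and missed the threshold (adjusted p = 0.0638). At 2.1 mM it was at 4.10, 4.13 and 3.94 and at 3.5 mM at 4.93, 4.15 and 4.17, within the 0 mM range except for the first array of 3.5 mM.

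Whether the immunoproteasome subunit fell relative to its constitutive counterpart was tested within each array, as the difference of the pair. The 4 arrays of 0 mM were set against the 12 of 1.4 to 3.5 mM. All 4 have the low spike level and all 12 the high one, so this test cannot tell dose from spike level. For Psmb9 minus Psmb6 the mean difference was -1.35 ± 0.221 (SD, n = 4) at 0 mM. It was -2.51 ± 0.25 at 1.4 mM, -3.43 ± 0.0395 at 2.1 mM, -2.86 ± 0.907 at 2.8 mM and -1.17 ± 0.362 at 3.5 mM (n = 3 each). Since 2 probe sets are compared, only how the difference changes between doses can be read. Of the 12 arrays 9 lay below all 0 mM arrays and 1 above, a shift of -1.14 (exact permutation test, two-sided, p = 0.0462, adjusted p = 0.138 over the 3 pairs). It did not pass. Of all refits of the 3 pairs only 1 passed, that of Psmb9 minus Psmb6 without replicate 3 of 3.5 mM (shift -1.29, exact permutation test, adjusted p = 0.0396). The array left out there is the 1 that lay above all 0 mM arrays. Psmb8 minus Psmb5 shifted by -0.28 (8 of 12 arrays below all 0 mM arrays and 4 above; exact p = 0.233, adjusted 0.349). Psmb10 minus Psmb7 shifted by 0.04 (1 of 12 below and 0 above; exact p = 0.866). The smallest p this design can give is 0.0011. The arrays of 2.1 and 3.5 mM went opposite ways in the first 2 pairs, with mean shifts of -2.08 and 0.19 for Psmb9 minus Psmb6 and of -0.71 and 0.32 for Psmb8 minus Psmb5.

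**Figure D3:**
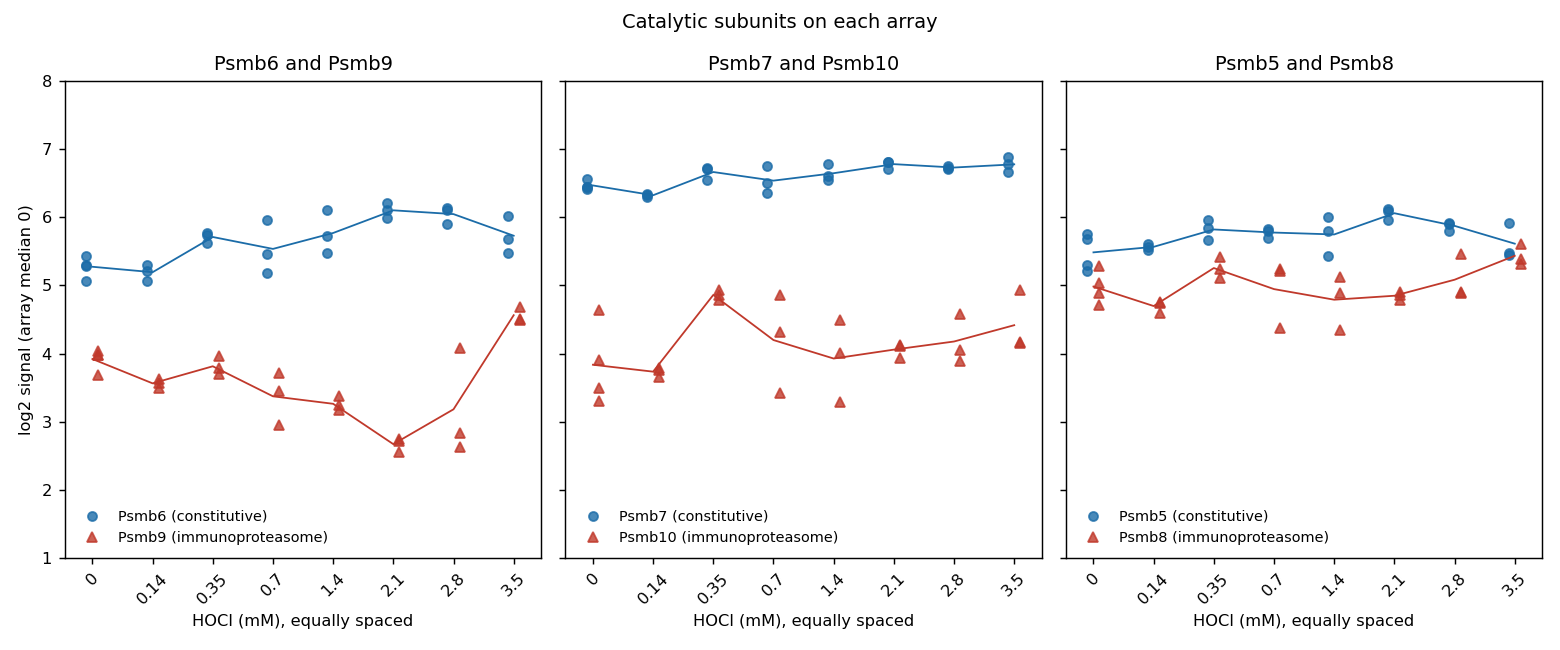
Log2 signal (vertical axis, array median 0) of the catalytic subunit genes on each array by HOCl dose (mM), constitutive in blue circles and immunoproteasome in red triangles, with lines through the dose means. The distance between Psmb6 and Psmb9 is largest at 2.1 mM, and at 3.5 mM Psmb9 lies at 4.50 to 4.69, above its 0 mM arrays.

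Genes of the base of the regulatory particle rose together at 2.1 mM. At 2.1 mM 8 of 9 were higher, at 2.8 mM 7 and at 3.5 mM 3, with medians of 0.70, 0.64 and 0.38. Psmc1, an ATPase, was at 4.07, 3.84, 4.34 and 3.93 at 0 mM and at 5.38, 5.18 and 5.19 at 2.1 mM, with no overlap, a 2.3-fold rise (log2 1.20, SE 0.164, limma adjusted p = 0.000244). Psmc6, also an ATPase, was at 4.96, 5.61, 5.33 and 5.54 at 0 mM and at 5.00, 5.01 and 5.10 at 0.14 mM. At 2.1 mM it was at 6.22, 6.06 and 5.99 (change 0.73, SE 0.137). Another Psmc6 probe set, with a mean level of 2.15, had a change of 5.4e-05 there and was not called. Psmd2, a large scaffold subunit that binds ubiquitin shuttles, was at 5.34, 5.05, 5.40 and 5.09 at 0 mM and at 5.96, 5.91 and 5.88 at 2.1 mM (change 0.69, SE 0.127). Their calls at 2.1 mM held without each array in turn.

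The other scaffold gene, Psmd1, had the largest change of the base, 2.87-fold at 2.1 mM (log2 1.52, SE 0.241, adjusted p = 0.000654 in limma). Its replicate 1 of 0 mM, at 3.34, lay below replicates 2 to 4 at 4.50, 4.88 and 4.12, and the call held without it. Psmc2 (0.98), Psmc3 (0.70), Psmc5 (0.69) and Psmd4, a ubiquitin receptor (0.33), were called too. Psmd4 lost its call without replicate 1 or 2 of 2.1 mM (adjusted p up to 0.0634), and Psmc5 without replicate 1 of that dose (0.0574). Psmc4 was the base gene not called at any dose by the probe set used. Its 0 mM arrays ranged from 4.16 to 5.13, and its change at 2.1 mM was 0.59 with an SE of 0.256 (adjusted p = 0.134). A second Psmc4 probe set, with a mean level of 4.37, was called at 2.1 mM (0.67, limma adjusted p = 0.0248). None of the 8 base genes was called at 2.1 mM with the spike level as a term, with changes of 0.32 to 1.22 and adjusted p from 0.188 to 0.466, and none at 2.8 or 3.5 mM.

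In the lid, 5 of 8 genes were higher at 1.4, 2.1 and 2.8 mM, and 1 at 3.5 mM. Psmd11, which ties the lid to the base and core, had the lowest F test p of the 40 genes. Its levels were 5.94, 6.01, 6.00 and 5.99 at 0 mM and 6.00, 6.02 and 6.01 at 0.14 mM. They were 6.57, 6.36 and 6.77 at 0.35 mM, 6.44, 6.36 and 6.87 at 0.7 mM, 6.81, 6.85 and 6.96 at 1.4 mM, and 6.99, 6.97 and 6.95 at 2.1 mM. At 2.8 mM they were 6.25, 6.75 and 6.68, and at 3.5 mM 6.07, 5.97 and 5.94. The gene thus left the narrow band of the lowest doses at 0.35 mM and lay close to it at 3.5 mM, with replicate 1 above it and replicate 3 at its lower edge. Its change was 1.5-fold at 0.35 mM (log2 0.58, SE 0.119, limma adjusted p = 0.0101), 1.98-fold at 2.1 mM (0.99, adjusted p = 7.91e-05) and 0.01 on the log2 scale at 3.5 mM (adjusted p = 0.979). With the spike level as a term it was 0.45 at 0.35 mM (adjusted p = 0.0191) and 0.60 at 2.1 mM (adjusted p = 0.133).

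Psmd7 and Psmd14 form the deubiquitinating pair of the lid. Psmd7 was at 3.83, 3.47, 4.05 and 3.44 at 0 mM, at 5.28, 5.19 and 5.10 at 2.1 mM, and at 4.68, 3.80 and 3.84 at 3.5 mM. The rise at 2.1 mM was 2.81-fold (log2 1.49, SE 0.2, limma adjusted p = 0.000207), while at 3.5 mM replicates 2 and 3 lay within the 0 mM range. Psmd14, the enzyme of the pair, was at 5.92, 6.09, 6.04 and 6.05 at 0 mM and at 6.68, 6.65 and 6.63 at 2.1 mM (change 0.63, SE 0.1). Psmd12 (1.15) and Psmd6 (0.83) were called at 2.1 mM as well. Psmd3, Psmd8 and Psmd13 were not called at any dose, with changes at 2.1 mM of 0.57 (SE 0.227), -0.02 (SE 0.185) and 0.06 (SE 0.136). None of the 5 lid genes was called at 2.1 mM with the spike level as a term, with changes of 0.37 to 1.17 and adjusted p from 0.133 to 0.382, and none at 2.8 or 3.5 mM. Psmd3 ranged from 2.81 to 3.83 at 0 mM, a wider range than that of Psmd13 (3.78 to 4.13).

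**Figure D4:**
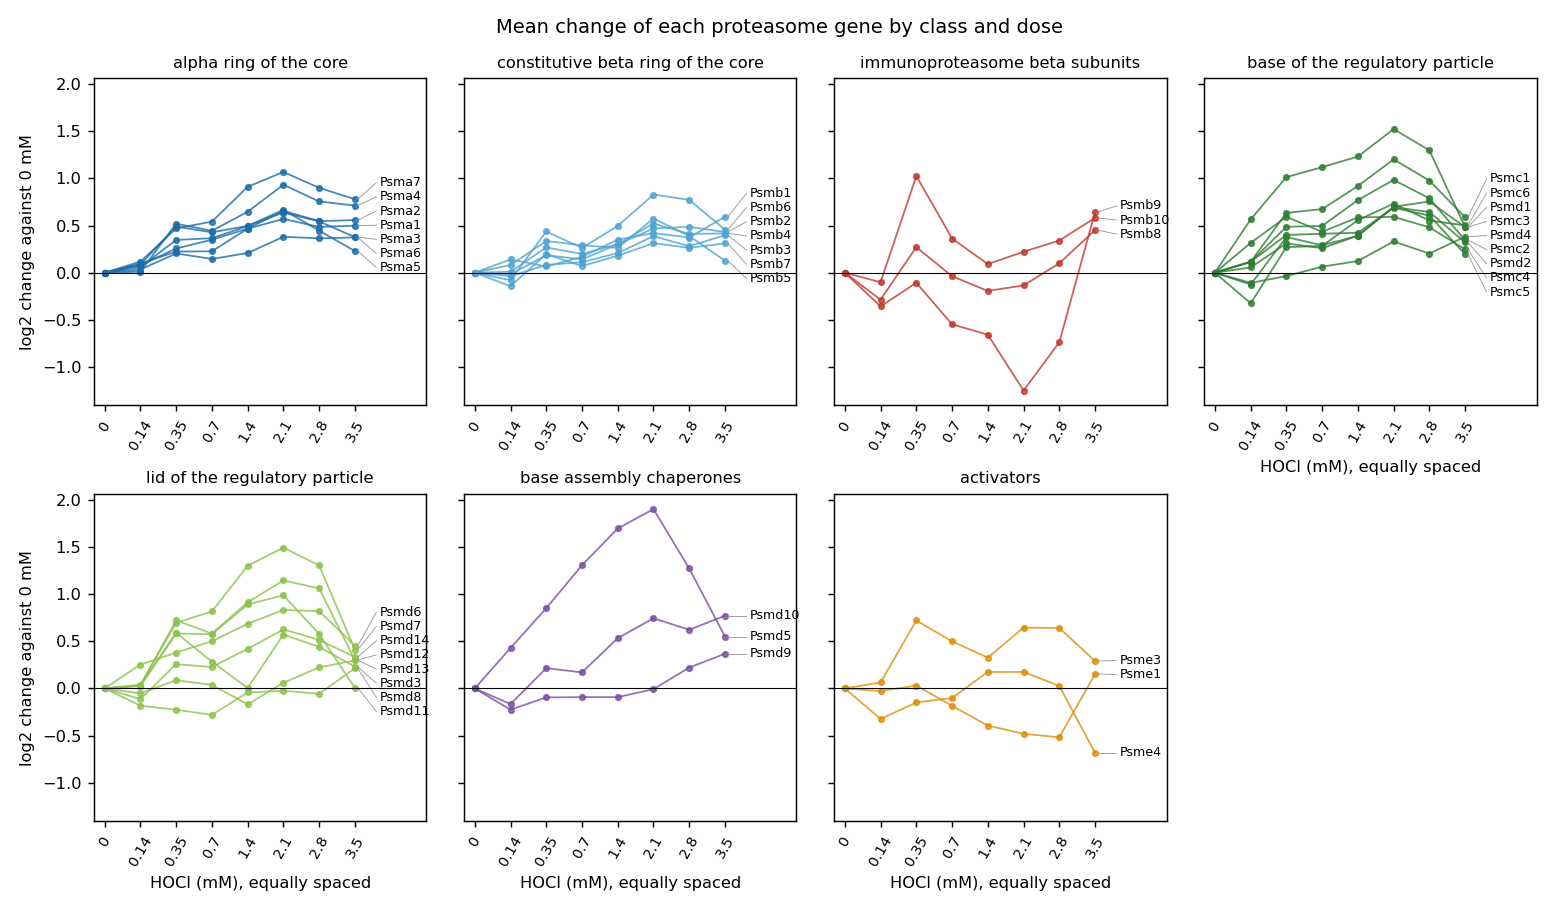
Mean log2 change against 0 mM (vertical axis) of each gene in its class, by HOCl dose (mM, equally spaced). The medians of the alpha genes are 0.66 at 2.1 mM and 0.50 at 3.5 mM, and those of the constitutive beta genes 0.47 and 0.42. Psmd1, Psmd7, Psmd11, Psmd12 and Psmd5 fall back at 3.5 mM, and Psmb9 and Psme1 move up.

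Psmd5, Psmd9 and Psmd10 encode chaperones that help to assemble the base and leave the finished particle. Psmd5 had the largest change of all 40 genes. Its levels were 3.53, 2.99, 3.49 and 3.01 at 0 mM, 3.47, 3.77 and 3.81 at 0.14 mM, and 4.20, 3.88 and 4.24 at 0.35 mM. They were 4.55, 4.58 and 4.56 at 0.7 mM, 4.81, 5.08 and 4.97 at 1.4 mM, and 5.24, 5.15 and 5.08 at 2.1 mM. At 2.8 mM they were 3.89, 4.92 and 4.77, and at 3.5 mM 4.27, 3.63 and 3.52. The means rose at every dose up to 2.1 mM, and from 0.35 to 2.8 mM no array overlapped with 0 mM. The change was 1.8-fold at 0.35 mM, 2.47-fold at 0.7 mM (log2 1.31, SE 0.208, limma adjusted p = 0.00904), where it was the only member called, and 3.74-fold at 2.1 mM (log2 1.90, adjusted p = 3.4e-05). The call at 0.7 mM was lost without replicate 4 of 0 mM or replicate 2 of 0.7 mM (adjusted p up to 0.0703). The 0.7 mM arrays lay close together although replicate 3 has the high spike level, and with that level as a term the change was 1.27 (adjusted p = 0.0275).

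The other 2 chaperone genes had courses of their own, whose difference from that of Psmd5 was not tested. Psmd10 was at 3.38, 3.27, 3.10 and 3.39 at 0 mM, at 4.17, 4.07 and 3.85 at 2.1 mM, and at 4.16, 4.21 and 3.79 at 3.5 mM. It was higher at 2.1 mM (0.74, SE 0.19), 2.8 mM and 3.5 mM (0.77), but replicate 3 of 0.35 and 0.7 mM (3.79 and 4.04) stood above replicates 1 and 2 of the same doses (3.46 and 3.25, 3.22 and 3.10), as the spike level did. With the spike level as a term its change at 2.8 mM was -0.038 in place of 0.62. The call at 2.1 mM was also lost without replicate 1 or 2 of that dose (adjusted p up to 0.0677). Psmd9 was at 2.82, 2.53, 2.77 and 2.66 at 0 mM, at 2.75, 2.72 and 2.61 at 2.1 mM, and at 3.18, 2.85 and 3.17 at 3.5 mM, and was not called at any dose.

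The activator genes went separate ways. Psme1, one of the 2 interferon-inducible subunits of the activator used with the immunoproteasome, was at 5.27, 5.39, 5.44 and 5.45 at 0 mM and at 5.03, 4.83 and 5.12 at 1.4 mM. It was at 5.01, 4.88 and 4.83 at 2.1 mM, at 5.11, 4.82 and 4.68 at 2.8 mM, and at 5.24, 5.49 and 5.89 at 3.5 mM. All arrays of 1.4 to 2.8 mM lay below all 0 mM arrays. The gene was lower at 2.1 mM (log2 -0.48, SE 0.128, limma adjusted p = 0.0173) and 2.8 mM (-0.52, adjusted p = 0.0125). Each call was lost without replicate 2 or 3 of its own dose (adjusted p up to 0.0744 and 0.0915). Neither was called with the spike level as a term (-0.39, adjusted p = 0.440, and -0.43, adjusted p = 0.306). Psmb9 and Psme1 were the 2 members lower at 2.1 and at 2.8 mM, 5% of the 40. That is below the share of all genes (8.20% and 8.60%). Both are interferon-inducible. Psmb8 and Psmb10, which are too, were not called and had changes of -0.135 and 0.222 at 2.1 mM. A link to interferon was not tested.

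Psme3 encodes a nuclear activator. It was at 3.97, 3.43, 4.38 and 3.66 at 0 mM, at 4.64, 4.61 and 4.49 at 0.35 mM, and at 4.57, 4.56 and 4.39 at 2.1 mM. It was called higher at both doses (0.72, adjusted p = 0.0341, and 0.64, adjusted p = 0.0343, by limma). Replicate 3 of 0 mM, at 4.38, nearly reached the treated arrays, and without replicate 2 or 4 of 0 mM, or without replicate 1 or 2 of the dose, both calls were lost. The call at 2.1 mM was also lost without replicate 3 of that dose (adjusted p up to 0.111), and with the spike level as a term (adjusted p = 0.556). A second probe set of Psme3 with a mean level of 3.31 did not share this direction, with changes of -0.039 at 0.35 mM, -0.38 at 2.1 mM (adjusted p = 0.461) and -0.24 at 2.8 mM. Psme4 encodes a large single-chain activator. It was at 3.96, 4.47, 3.91 and 4.24 at 0 mM, at 4.49, 4.31 and 4.16 at 2.1 mM, and at 3.42, 3.49 and 3.49 at 3.5 mM. Its change at 3.5 mM was -0.68 (SE 0.141, adjusted p = 0.00402), the only member lower at that dose, and it held without each array and with the spike level as a term (-1.07, adjusted p = 0.00157). It was not called by the other Psme4 probe sets of a mean level of 2 or more, which gave -0.40 (mean level 3.55, adjusted p = 0.143) and -0.065 (mean level 2.76, adjusted p = 0.882) at 3.5 mM.

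Between 2.1 and 3.5 mM some members fell and others rose. This contrast was chosen after the values were seen. Of the 40 genes 10 were lower at 3.5 than at 2.1 mM (background 8.73%) and 3 higher (background 10.9%). The lower ones were Psma5 and Psmb5 of the core's 14 constitutive genes, 6 of the 17 genes of base and lid (Psmc1, Psmc2, Psmd1, Psmd7, Psmd11 and Psmd12), the chaperone Psmd5 and the activator Psme4. The higher ones were Psmb9, Psme1 and Psmd9. Against 0 mM, 11 of the 14 constitutive core genes were still higher at 3.5 mM (13 at 2.1 mM), with a median of 0.42 (0.57 at 2.1 mM). Of the 17 base and lid genes 4 were (13 at 2.1 mM), with a median of 0.33 (0.70). The difference between the 2 classes was not tested. On the 3 arrays of 3.5 mM the median of the base and lid genes was 0.63, 0.23 and 0.25 above 0 mM, and that of the core genes 0.58, 0.42 and 0.31, so that replicate 1 shows no gap of this kind.

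Among single genes the difference was largest for Psmb9, which was 3.71-fold higher at 3.5 than at 2.1 mM (log2 1.89, SE 0.245, limma adjusted p = 4.45e-05). Psme1 was 1.55-fold higher (log2 0.63, adjusted p = 0.00309). Psmd5 fell by 1.35 on the log2 scale (SE 0.223, adjusted p = 0.00037), Psmd7 fell by 1.08, Psmd1 fell by 1.04, Psmd11 fell by 0.98 (adjusted p = 4.8e-05) and Psme4 fell by 0.86. These 7 held without each array in turn. All arrays of both doses have the high spike level, so the spike level as a term cannot change these differences and is no check on them. Of the 10 lower genes 5 remained without replicate 1 of 2.1 mM or replicate 3 of 3.5 mM and 6 without replicate 2 of 3.5 mM. Psmd9 and Psmb5 were each lost in 17 omissions. With either kind of array weights 18 were lower and 4 higher, and the shares of all genes were not counted for this contrast in those fits.

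**Figure D5:**
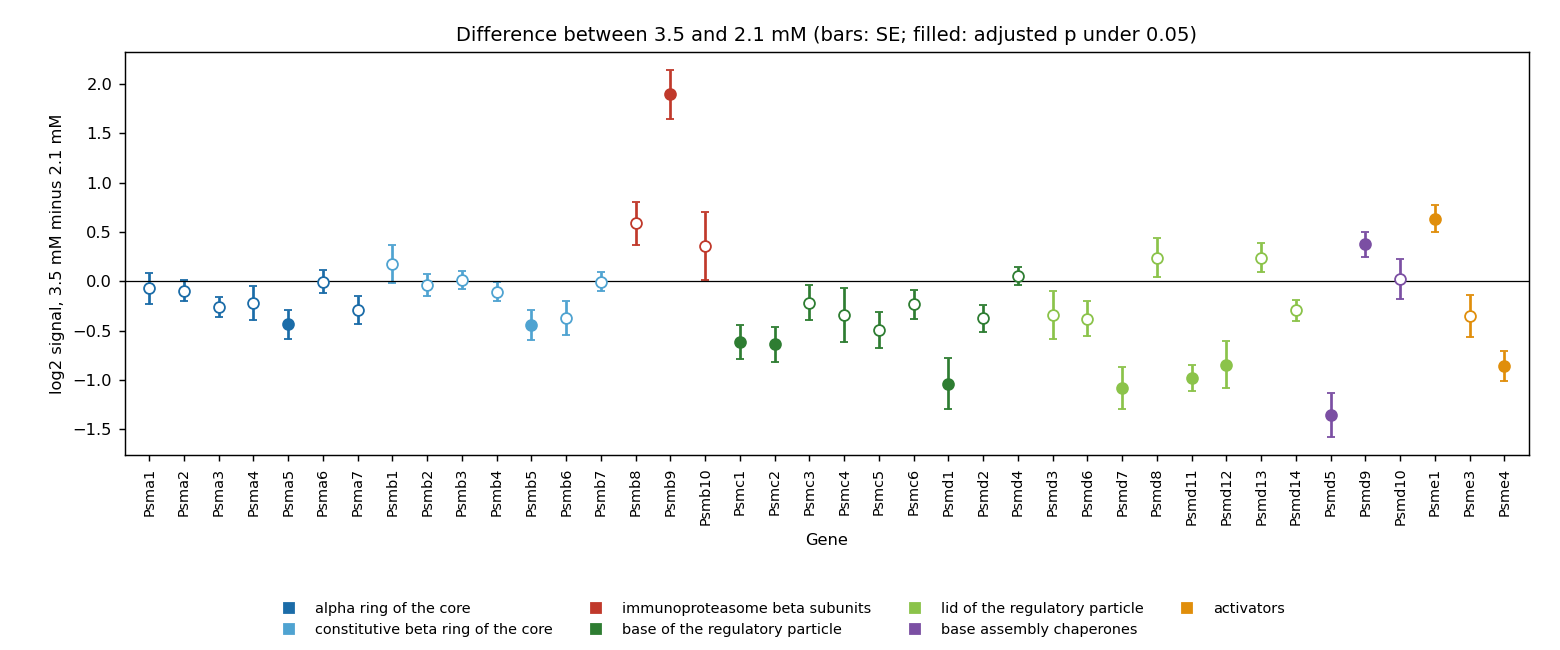
Difference in log2 signal between 3.5 and 2.1 mM (vertical axis) for each of the 40 genes, coloured by class, with the SE of the limma fit as bars and filled points for an adjusted p under 0.05. Psmb9 is highest at 1.89 and Psmd5 lowest at -1.35, and of the 14 alpha and constitutive beta genes 12 lie below 0, of which Psma5 (-0.44) and Psmb5 (-0.45) are filled.

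Steps between neighbouring doses placed the changes. From 0.14 to 0.35 mM 4 genes were higher (background 1.39%) and 0 lower (2.64%): Psmb7, Psmc6, Psmd2 and Psmd11. With default array weights, for which no share of all genes was counted, 34 were higher, and with gene-by-gene weights 22 (8.72% of all genes). All 4 calls were lost in some omission, Psmd11 (0.56, SE 0.128, limma adjusted p = 0.0236) without any array of 0.14 mM or replicate 1 or 3 of 0.35 mM (up to 0.0977), and none was called with the spike level as a term. From 2.8 to 3.5 mM 2 were higher (8.81%), Psmb9 (1.38, adjusted p = 0.00117) and Psme1 (0.67, adjusted p = 0.00342). In the same step 6 were lower (5.33%), namely Psmd1, Psmd7, Psmd11, Psmd12, Psmd5 and Psme4. With either kind of array weights 13 were lower (11.0% of all genes with gene-by-gene weights). The 6 became 1 without replicate 2 of 2.8 mM, 2 without replicate 3 of 2.8 mM or replicate 2 or 3 of 3.5 mM, 3 without replicate 2 of 2.1 mM, and 10 without replicate 1 of 3.5 mM. Psmb9, Psme1 and Psme4 were called in every omission. Limma called 0 members from 0.35 to 0.7 mM, from 0.7 to 1.4 mM and from 1.4 to 2.1 mM (background 0% each), and 0 from 2.1 to 2.8 mM (background 0.0330%). At an unadjusted p under 0.05 there were 0, 3, 5 and 3, for which the shares of all genes were not counted.

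Other genes of the pathway were followed by lists. The shares of all genes stay those above, 7.32% higher and 8.20% lower at 2.1 mM, and 4.54% and 4.83% at 3.5 mM. Of 11 measured assembly and accessory genes outside the rule, 2 were higher at 2.1 mM and 0 lower. They were Pomp, which matures the core (0.64, SE 0.113, limma adjusted p = 0.00123), and Usp14, a deubiquitinase that binds the base (1.09, SE 0.214, adjusted p = 0.00256). Both lay within the range of the members' own changes. Of 12 measured shuttle factors and genes of the VCP segregase, 7 were higher at 2.1 mM and 1 lower, and 0 either way at 3.5 mM. Sqstm1, the autophagy receptor for ubiquitinated cargo, was at 5.32, 6.26, 5.05 and 6.34 at 0 mM, at 7.89, 7.84 and 7.87 at 2.1 mM, and at 5.67, 6.14 and 6.67 at 3.5 mM. Its change was 2.12 at 2.1 mM (SE 0.304, adjusted p = 0.000334) and 0.41 at 3.5 mM (adjusted p = 0.411). Zfand5, a proteasome-binding protein, was at 4.14, 5.79, 4.39 and 5.81 at 0 mM and at 6.22, 6.11 and 6.11 at 2.1 mM, with changes of 1.11 at 2.1 mM (adjusted p = 0.0248) and -0.31 at 3.5 mM. In both genes replicates 2 and 4 of 0 mM lay above replicates 1 and 3.

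Of the 6 ubiquitin genes and activating enzymes, 1 was measured by a probe set of its own symbol, Uba6, and was not called (0.35 at 2.1 mM, SE 0.225). Of 12 transcription regulators of proteasome genes, 1 was higher and 1 lower at 2.1 mM, which is near the share of all genes in both directions (7.32% and 8.20%). Mafk, a small Maf partner of Nfe2l1, had 0.90 at 2.8 mM (SE 0.203, limma adjusted p = 0.00692) and -0.90 at 3.5 mM (adjusted p = 0.00751). Nfya, a subunit of NF-Y, fell at 3.5 mM (-1.33, SE 0.186, adjusted p = 0.00011). Of 11 measured interferon and MHC class I processing genes, 1 was higher and 3 lower at 2.1 mM (7.32% and 8.20% of all genes), and 0 either way at 3.5 mM. Tap1, a subunit of the peptide transporter, had -0.78 at 2.1 mM (SE 0.38, adjusted p = 0.189) and 0.20 at 3.5 mM. Nlrc5, the transactivator of MHC class I genes, had -1.18 at 2.8 mM (SE 0.352, adjusted p = 0.0335).

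The choice of probe set mattered for some genes. Of the 40 genes 22 have further probe sets of their own symbol, 46 in all, of which 17 have a mean level of 2 or more. At 2.1 mM 15 of these 17 had the sign of the one used, counting that of Psmc6 with a change of only 5.4e-05. Of the 13 that belong to genes called at 2.1 mM, 7 were called in the same direction. The second probe sets of Psma7 (1.12) and Psmc2 (1.09) gave changes close to those used (1.07 and 0.98). That of Psmd6 gave 2.29 and was not called (limma adjusted p = 0.0767), where the one used gave 0.83. The probe set of largest variance went against the one used for Psma3 and Psma1 at 3.5 mM, with changes of -1.70 (limma adjusted p = 0.000281) and -1.46 (adjusted p = 3.81e-05) in place of 0.38 and 0.50. These 2 probe sets are dim, with mean levels of 1.01 and 1.07, and so are not among the 17. Which transcripts these probe sets measure was not examined here.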

How the data were processed

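RNA was hybridised to 25 Affymetrix arrays, 4 for 0 mM HOCl and 3 for each of 7 doses. The values deposited by the authors are log2 signals of probe sets, made with RMA per the submitters' processing notes from intensities read with Array Assist per the labels. Its version is not given in the sources used here, and that the base is 2 is an inference from their span. Every array has a median of 0. The number of arrays limits the precision.

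Of 45101 probe sets 64 controls were set aside and 45037 tested. Gene names came from the platform annotation: 34945 probe sets had 1 symbol, 932 several and 9160 none. The model, with 1 mean for each dose and all arrays in the fit, used limma 3.58.1 (R 4.3.3). P-values were two-sided and adjusted by Benjamini-Hochberg over the tested probe sets of each comparison. The background is the share of the 18193 genes called. Catalytic pairs were tested with scipy 1.17.1. The fit was tested on simulated data. Arrays took their spike level from a mean of 8 control probe sets at a threshold of 1.44.

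The members and lists were chosen with earlier results of these data known. All members are accounted for. Values on single arrays are given for the 3 of each class with the lowest F test p, for members called lower, and for the catalytic genes, and those of some others were added after their values were seen. Of the other lists the 2 genes with the lowest p were named. Same-numbered arrays did not deviate together (19 of 84 pairs had a correlation over 0.1).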

Additional observations from a re-analysis of the deposited data

Results flagged for a closer look

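With 4 arrays, the 0 mM group was examined for single arrays that stand apart, by the gap to the nearest array as a share of the group's range against Dixon's critical value. Chance flags about 1 in 20 such groups, and 40 genes were examined. Replicate 3 of 0 mM stood above the others for Psma3 (0.8761), Psmb7 (0.8619) and Psmc2 (0.8739). Replicate 1 stood below the others for Psmb9 (0.8381). Without replicate 3 of 0 mM, 16 members were called higher at 0.35 mM in place of 9.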

How the results depend on the processing

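Of 127 calls of single genes, 127 held with p-values adjusted over 1 probe set per gene, 126 without dim probe sets and with either kind of array weights, 119 with a trended and robust variance prior, and 101 with quantile normalization. With the probe set of largest variance 90 held and 12 reversed. With only the arrays of the 2 doses compared 55 of 102 held, and on low-spike arrays 2 of 10. The median log2 change stayed above 0 from 0.35 to 3.5 mM under all of them and in each omission of an array.

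Quantile normalization gave 2 members lower at 1.4 mM, 7 higher at 3.5 mM, and medians of 0.49 at 2.1 mM and 0.38 at 2.8 mM. The trended prior gave 2 higher from 0.14 to 0.35 mM. With only the arrays of the 2 doses compared, 0 were higher at 0.35 and 0.7 mM, 6 at 1.4 mM (1 lower), 16 at 2.8 mM (0 lower) and 4 at 3.5 mM. Default array weights stopped before converging, so gene-by-gene weights were added after seeing the data. With the default weights 5, 32, 23 and 29 were higher at 0.14, 0.35, 0.7 and 1.4 mM and 4, 3, 5 and 2 lower. From 0.14 to 0.35 mM 34 were higher, 13 were lower from 2.8 to 3.5 mM and 18 lower at 3.5 than at 2.1 mM, and the medians were 0.43 at 0.35 mM and 0.55 at 2.8 mM. Gene-by-gene weights gave 5, 30, 20 and 29 higher, 4, 1, 2 and 2 lower, then 22, 13 and 18, and medians of 0.44 and 0.55.

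Replicate numbers did not pair the arrays. With the replicate block 1 was higher at 0.35 mM, 0 at 0.7 mM and 10 at 3.5 mM, 1 was lower at 2.1 mM and 1 at 2.8 mM, and 89 of 127 calls held. For 5 of 24 arrays the correlation was best with their own number.

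With the spike level as a term 27 of 127 calls held. Of the 127, 8 compare 3.5 with 2.8 mM and 13 compare 3.5 with 2.1 mM. All arrays of these doses have the high level, so the term cannot change those differences. With the term 3 were higher at 0.35 mM, 0 at 1.4 mM, 1 at 2.1 mM and 0 at 2.8 and 3.5 mM. Of all genes 2.4%, 0.038%, 0.088%, 0.066% and 1.5% were higher at these doses. From 0.14 to 0.35 mM 0 were higher, at 2.1 and 2.8 mM 0 were lower, and the F test called 8 (share of all genes not counted). The medians were 0.15, 0.42, 0.32 and 0.18 from 1.4 to 3.5 mM, and Psmd10 at 2.8 mM reversed to -0.038. On low-spike arrays 2 were higher at 0.35 mM and 0 at 0.7 mM. Without the 2 high-spike arrays of 0.35 and 0.7 mM, added after seeing the data, 116 of 127 held, with 3 higher at 0.35 mM, 0 at 0.7 mM and 1 from 0.14 to 0.35 mM.

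The probe set of largest variance gave 4 higher at 0.35 mM, 2 lower at 3.5 mM and 2 higher from 0.14 to 0.35 mM. It reversed Psma3 at 0.35 mM (-0.50), 2.1 mM (-0.11), 2.8 mM (-0.10) and 3.5 mM (-1.70), and Psme3 at 0.35 mM (-0.039), 2.1 mM (-0.38) and 2.8 mM (-0.24). At 3.5 mM it reversed Psma1 (-1.46), Psma6 (-0.56) and Psmb1 (-0.087), from 0.14 to 0.35 mM Psmc6 (-0.35), and between 2.1 and 3.5 mM Psmd9 (-0.52). For Psma3, Psma1, Psma6 and Psmb1 this probe set is dim, with mean levels of 1.01, 1.07, -0.90 and 0.89. The cause was not tested.

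Leaving out each array in turn, 1 to 16 members were higher at 0.35 mM, 0 to 7 at 0.7 mM, 9 to 19 at 1.4 mM, 21 to 31 at 2.1 mM, 18 to 27 at 2.8 mM and 5 to 18 at 3.5 mM. From 0 to 2 were lower at 1.4 mM, 1 to 2 at 2.1 mM and 0 to 2 at 2.8 mM, and the F test called 28 to 33. From 0.14 to 0.35 mM 0 to 6 were higher and from 2.8 to 3.5 mM 1 to 10 lower. At 3.5 against 2.1 mM 2 to 4 were higher and 5 to 14 lower. The median spanned -0.042 to 0.11 at 0.14 mM, 0.27 to 0.42 at 0.35 mM, 0.13 to 0.43 at 0.7 mM, 0.31 to 0.54 at 1.4 mM, 0.59 to 0.71 at 2.1 mM, 0.49 to 0.57 at 2.8 mM and 0.31 to 0.47 at 3.5 mM. The shift of Psmb9 minus Psmb6 spanned -1.29 to -1.05.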
